A study of Mus musculus with 3 samples.

Results

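Fos/Fosb-high microglia were microglia with at least 3 unique molecular identifiers (UMIs, counted mRNA molecules) of Fos and Fosb together. They numbered 1974 of 13312 microglia, themselves taken from 14070 cells that passed the quality filter and 14289 cells deposited. Microglia were defined by P2ry12 and Tmem119, together at least 0.15% of a cell's UMIs, and by fewer than 5 UMIs of the macrophage genes Mrc1, Pf4, Ms4a7 and F13a1. The comparison cells came from the same library, held 0 UMIs of Fos and of Fosb, and were matched to the Fos/Fosb-high cells 1 to 1 on total UMIs. They are called matched microglia below. Fos and Fosb therefore chose the cells, and their own levels are given as a description only.

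The cells came from brains of 8-week-old mice, sorted on CD11b, CD45 and Cx3cr1 and sequenced with 10x Chromium 3' chemistry in 3 libraries, 1 per genotype. The hCD33m library came from female mice that express the short isoform of human CD33, a sialic acid-binding inhibitory receptor of myeloid cells. The hCD33M library came from male mice that express its long isoform, and the Control library from male mice labelled wild type. Per the study's methods, each transgene sat in the Rosa26 locus on a C57BL/6 background, carried a GFP reporter and was switched on in microglia by Cre from the Cx3cr1 locus. The hCD33m line was derived through C57BL/6NTac embryonic stem cells. The methods describe pooled mice for another experiment of the study, and the number of mice behind these libraries is not stated for them. Neither the transgenes nor GFP had a row in the tables. Genotypes had 1 library each and so could not be tested against each other, and in the hCD33m library genotype and sex cannot be told apart. Microglia held 5307, 4791 and 3214 cells in the hCD33m, hCD33M and Control libraries, and each pair of libraries shared 7 to 10 cell barcodes.

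Fos and Fosb are subunits of AP-1, a transcription factor that binds DNA as a dimer of a Fos protein with a Jun protein. Their genes are immediate early genes, which are transcribed within minutes of a stimulus from pre-bound factors such as CREB and serum response factor, without new protein synthesis. Their mRNAs are short-lived, and many genes induced beside them encode inhibitors that end the response. In microglia such genes are known to be induced both by stimuli in the living brain and by tissue dissociation. Per the methods, mice were perfused with the transcription inhibitors Actinomycin D and Triptolide, and brains were stored cold with the translation inhibitor Anisomycin added.

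Promoters of 5 genes are shown because they hold the motifs through which immediate early genes are known to respond to CREB (the CRE and its half-site) or serum response factor (the CArG box). Sequences are from RefSeq, build GRCm38.p6, written 5′ to 3′ on the gene's strand, with the motif in capitals. Fos lies on chromosome 12, Fosb and Zfp36 on chromosome 7, Dusp1 on chromosome 17 and Btg2 on chromosome 1.
Fos (chr12:85473736-85473853, plus strand): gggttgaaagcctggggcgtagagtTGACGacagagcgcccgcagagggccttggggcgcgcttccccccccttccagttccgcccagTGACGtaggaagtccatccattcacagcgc
Fosb (chr7:19310076-19310130, minus strand): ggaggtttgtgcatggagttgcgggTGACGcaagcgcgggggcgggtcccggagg
Dusp1 (chr17:26508583-26508688, minus strand): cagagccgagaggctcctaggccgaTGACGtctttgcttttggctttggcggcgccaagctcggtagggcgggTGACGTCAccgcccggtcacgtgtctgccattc
Btg2 (chr1:134079289-134079346, minus strand): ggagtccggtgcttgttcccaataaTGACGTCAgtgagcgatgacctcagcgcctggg
Zfp36 (chr7:28379252-28379311, minus strand): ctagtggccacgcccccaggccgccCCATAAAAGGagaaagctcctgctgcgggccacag

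The Fos stretch held 2 CRE half-sites (TGACG outside a whole CRE), the farther of them 129 bases and the nearer 66 bases before the start. Fosb held 1 half-site, 60 bases before the start. Dusp1 held a half-site 191 bases and a whole CRE (TGACGTCA) 143 bases before the start, Btg2 a whole CRE at 166 bases and Zfp36 a CArG box at 58 bases. The motifs were searched on both strands in the 250 bases before each start. Among the 43 genes that rose in Fos/Fosb-high cells and had a RefSeq window, 4 held a whole CRE (9.30%), against 3.34% of the 7595 tested genes with a window and 1.55% of all 32851 windows. A half-site was found for 19 of them (44.2%), against 30.5% of tested genes and 16.5% of all windows. A CArG box and an AP-1 site (TGANTCA) were each found for 1 of the 43 (2.33%), against 1.34% and 4.87% of tested genes and 1.47% and 6.75% of all windows. The 4 genes with a whole CRE were Dusp1, Btg2, Ppp1r15a and H2-Aa. Of these, H2-Aa rose in hCD33M only, where 5 cells held 97.3% of its UMIs, and Ppp1r15a did not pass without hCD33m. Of the named genes that rose, with Fos and Fosb, 25 had a RefSeq window, and 16 of these held at least 1 of the 4 motifs. Jun, Jund, Ier3, Id2, Klf6, Socs3, Dusp6, Cebpa and H2-Eb1 had a window but none of the motifs. The motif shares are counts of letters, and binding was not measured.

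Fos/Fosb-high cells made up 23.1% of microglia in the hCD33m library (95% exact binomial interval 22.0 to 24.2%), 8.06% in the hCD33M library (7.30 to 8.86%) and 11.3% in the Control library (10.2 to 12.4%). In numbers these were 1225, 386 and 363 cells. Intervals here and below cover counting error only and not the spread between mice. Because deeper cells reach 3 UMIs more easily, every microglial cell was also thinned to 2000 UMIs. At that depth the share was 7.39% in hCD33m (6.67 to 8.16%, 4871 cells), 1.08% in hCD33M (0.80 to 1.43%, 4517 cells) and 1.75% in Control (1.31 to 2.28%, 3033 cells). Cells shallower than that were left out, 436 in hCD33m, 274 in hCD33M and 181 in Control. At each depth tried, hCD33m was highest and hCD33M lowest.

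**Figure D1:**
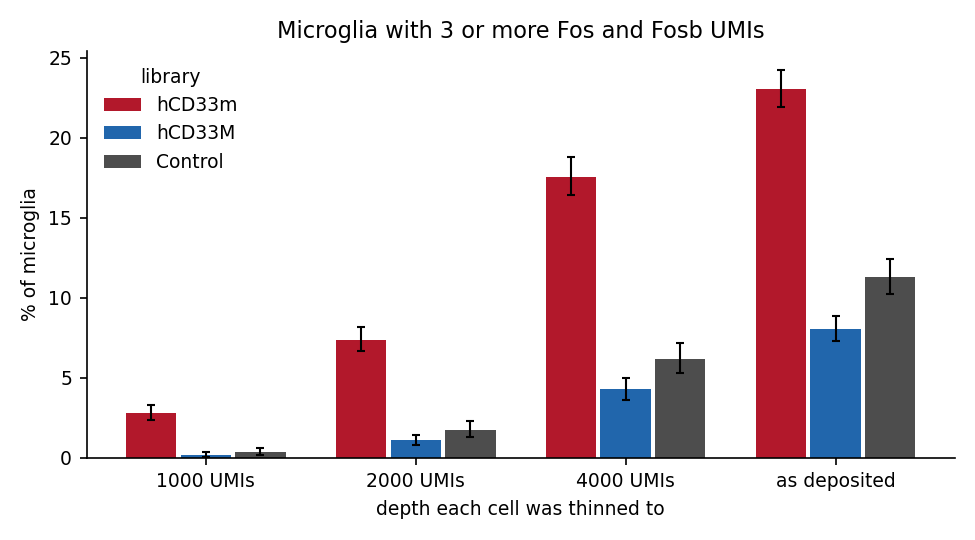
Share of microglia with at least 3 Fos and Fosb UMIs (%, vertical axis) in the hCD33m, hCD33M and Control libraries, for cells thinned to 1000, 2000 or 4000 UMIs and as deposited; bars are 1 library each and lines are 95% exact binomial intervals. The hCD33m bar is the tallest at every depth, 7.39% against 1.75% in Control at 2000 UMIs.

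The threshold cut through a continuous range. Just outside it, 502, 344 and 228 cells of the hCD33m, hCD33M and Control libraries had 2 UMIs of Fos and Fosb. Just inside it, 346, 191 and 153 cells had 3 UMIs and 211, 91 and 69 had 4. Cells with 10 or more UMIs numbered 254, 6 and 19 in the same order, so the upper end of the range lay mostly in the hCD33m library. The 0 class, from which matched microglia were drawn, held 2577, 3303 and 2154 cells.

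No cell type that should lack Fos was kept in numbers that would give a background share. Macrophages, the other cell type with over 50 cells per library, reached 3 UMIs in 47.2% of 127 cells in hCD33m, 40.8% of 98 in hCD33M and 34.6% of 81 in Control, at median depths of 9920, 8576.5 and 10474 UMIs. Thinned to 2000 UMIs, their share was 7.56% for hCD33m (9 of 119 cells, 3.52 to 13.9%), 4.08% for hCD33M (4 of 98, 1.12 to 10.1%) and 2.63% for Control (2 of 76, 0.32 to 9.18%). The part of free RNA in the Fos and Fosb counts was not tested.

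Within Fos/Fosb-high cells Fos was the more abundant transcript. Over all of them, Fos stood at 542, 301 and 331 CPM (UMIs per 1000000 UMIs of the same cells) in hCD33m, hCD33M and Control, and Fosb at 333, 199 and 176 CPM. Fos thus made up 62.0%, 60.2% and 65.3% of their Fos and Fosb UMIs. Both transcripts were seen in 884 of the hCD33m cells (72.2%), in 240 of the hCD33M cells (62.2%) and in 230 of the Control cells (63.4%). Fos alone was seen in 242, 102 and 96 cells and Fosb alone in 99, 44 and 37. The median cell held 5, 4 and 4 UMIs of the pair and the highest 46, 13 and 22. Of all microglial UMIs of the pair, Fos/Fosb-high cells held 80.4%, 52.5% and 65.4% in the same order.

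Matching found a partner for 1054, 362 and 330 Fos/Fosb-high cells of hCD33m, hCD33M and Control, and the 171, 24 and 33 left over were deep cells (median 14040, 26715.5 and 25494 UMIs). In the pairs, median UMIs were 5774.5 against 5768.5 in matched microglia of hCD33m, 5796 against 5800 in hCD33M and 6210 against 6196.5 in Control. Median genes per cell were 2445.5 against 2432, 2460 against 2478.5 and 2562.5 against 2547.5 in the same order. Mitochondrial UMIs made up 1.82% against 1.88%, 2.07% against 2.18% and 1.83% against 1.88%, and ribosomal protein UMIs 6.28% against 6.51%, 7.02% against 7.25% and 7.37% against 7.35%. Depth and these measures of RNA quality thus differed little between the 2 kinds of cell.

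Fos/Fosb-high cells carried the microglial markers at the level of their matched microglia. Csf1r, the receptor microglia need to survive, stood at 3779, 3729.7 and 3676 CPM in Fos/Fosb-high cells of hCD33m, hCD33M and Control, against 3776, 3667 and 3701 CPM in matched microglia. None of the 25 tested homeostatic microglia genes passed the test in either direction, and their median log2 ratio was -0.01. Over all tested genes 0.687% passed as higher and 0.167% as lower, so no call among 25 genes is near that share. Sall1, a transcription factor of microglial identity, had a log2 ratio of 0.00 and Csf1r 0.01. Cx3cr1, the locus of the Cre, had 3081, 3301 and 5556 CPM in Fos/Fosb-high cells, against 3075, 3335 and 5640 CPM, lower in both transgenic libraries than in Control. Whether the Control mice carried the Cre knock-in is not stated for these libraries, so the effect of the knock-in and of the transgenes cannot be told apart in comparisons with Control. Summed markers of T and NK cells, neurons, oligodendrocyte precursors, mural cells, choroid plexus and red blood cells were each at or under 5.31 CPM in every group of cells. Those of neutrophils, B cells, astrocytes, oligodendrocytes and endothelium summed to between 102 and 595 CPM in Fos/Fosb-high cells, against 103 to 596 CPM in matched microglia, with no called gene. Monocyte markers summed to 13.6, 24.3 and 11.0 CPM in Fos/Fosb-high cells, against 21.8, 11.1 and 9.95 CPM in matched microglia.

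The comparison with matched microglia asked which other transcripts accompany Fos and Fosb. UMIs were summed over the cells of each kind in each library, and the 6 sums were fitted with edgeR's quasi-likelihood test with the library as a block. Of 9607 tested genes 66 were higher in Fos/Fosb-high cells (0.687%) and 16 lower (0.167%) at a Benjamini-Hochberg adjusted p under 0.05. The p-values and SE rest on a spread between the 3 libraries, which differ in genotype, that the fit shares across genes. They do not measure the spread of a single gene. The antigen presentation gene H2-Eb1 passed with log2 ratios of -0.63, 5.88 and -0.02 in hCD33m, hCD33M and Control. Of the genes that rose, 59 were higher in all 3 libraries, 14 rose at least 2-fold and 35 by less than 1.5-fold. Of those that fell, 15 were lower in all 3 libraries and 6 by at least 2-fold. The median over all tested genes was -0.00 on the log2 scale. The hCD33m library carried part of the count. Without it 30 genes were higher and 17 lower, and 22 genes were higher in the full fit and in each of the 3 fits that left out 1 library. DESeq2 called 15 genes higher and 1 lower, all of them among the 82, with 76 genes at an unadjusted p under 0.05 against 675 by edgeR.

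The Jun partners of Fos and Fosb rose, while the other AP-1 genes did not pass the test. In Fos/Fosb-high cells Jun (chromosome 4, 95049034 to 95052222, mm10) stood at 1947, 1309 and 1534 CPM in hCD33m, hCD33M and Control, against 901, 659 and 761 CPM in matched microglia. Its lowest value in Fos/Fosb-high cells was above its highest in matched microglia, and at least 1 Jun UMI was seen in 97.8 to 99.1% of Fos/Fosb-high cells against 87.6 to 91.9% of matched ones. The log2 ratio was 1.05 ± 0.03 (SE, 3 libraries, edgeR adjusted p = 4.2e-26). Jund (chromosome 8, 70698949 to 70700616), known for a steadier expression than Jun, had 962, 751 and 873 CPM in Fos/Fosb-high cells, against 525, 478 and 539 CPM in matched microglia. The fitted log2 ratio was 0.77 ± 0.04 (adjusted p = 2.7e-19). Junb (chromosome 8, 84974484 to 84978718), a weaker activator that can antagonise Jun, had 903, 665 and 826 CPM, against 467, 463 and 495 CPM. Junb rose by 0.78 ± 0.04 on the log2 scale (adjusted p = 9.4e-17). Groups did not overlap for any of the 3 genes. Here and below non-overlap of these few sums is a description only, since its share over all tested genes is not given. Over the list, 3 of 10 tested members rose, none fell and the median log2 ratio was 0.24, with 0.39, 0.34 and 0.01 in hCD33m, hCD33M and Control and 0.15 without hCD33m. Atf3, a stress-induced partner, had 28.6, 28.9 and 33.7 CPM in Fos/Fosb-high cells, against 20.8, 24.3 and 33.7 CPM in matched microglia, with adjusted p = 0.585 by edgeR. Fosl2, the other Fos family member tested, had 11.7, 10.2 and 7.39 CPM, against 8.86, 9.06 and 10.4 CPM.

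**Figure D2:**
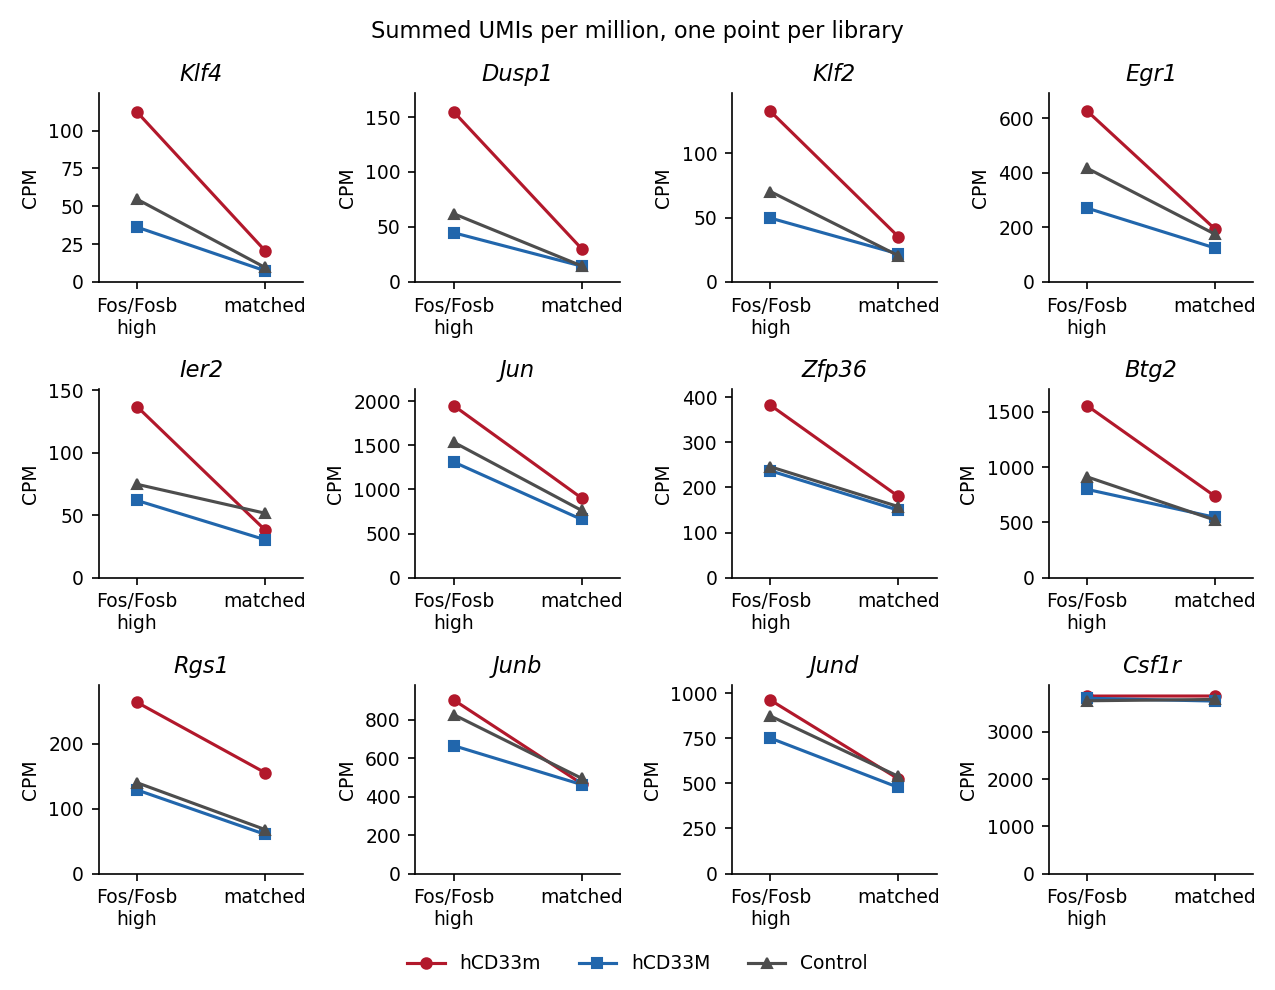
Summed CPM (vertical axes from 0) of 11 genes that rose and of Csf1r in Fos/Fosb-high cells (left) and matched microglia (right); each line joins the 2 sums of 1 library. All lines of the 11 genes run higher on the Fos/Fosb-high side, while those of Csf1r are nearly level.

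Several early response genes outside AP-1 rose more in proportion than the Jun genes. Klf4 (chromosome 4, 55527143 to 55532466), a Kruppel-like transcription factor induced in activated myeloid cells, had 112, 36.2 and 54.6 CPM in Fos/Fosb-high cells of hCD33m, hCD33M and Control, against 20.7, 7.41 and 9.58 CPM in matched microglia. The lowest Fos/Fosb-high value lay above the highest matched value. Klf4 was seen in 31.4%, 13.8% and 19.7% of Fos/Fosb-high cells, against 8.35%, 4.70% and 5.76% of matched microglia, so most Fos/Fosb-high cells had no Klf4 UMI at this depth. Its log2 ratio was 2.43 ± 0.11 (SE, edgeR adjusted p = 2.7e-19). Klf2 (chromosome 8, 72319033 to 72321656), a related factor that restrains inflammatory genes, had 133, 49.6 and 70.3 CPM, against 35.1, 21.8 and 20.4 CPM, and a log2 ratio of 1.78 ± 0.10 (adjusted p = 1.5e-16).

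Egr1 (chromosome 18, 34859823 to 34864984), a zinc finger factor that is the third marker of the state, had 626, 270.5 and 417 CPM in Fos/Fosb-high cells of hCD33m, hCD33M and Control, against 194, 124 and 175 CPM in matched microglia. It was seen in 77.1%, 59.9% and 74.5% of Fos/Fosb-high cells, against 41.3%, 32.0% and 38.2% of matched microglia. Groups did not overlap, and the log2 ratio was 1.48 ± 0.06 (SE, edgeR adjusted p = 2.5e-21). Ier2 (chromosome 8, 84661331 to 84662852), a nuclear immediate early protein, had 137, 61.8 and 74.8 CPM, against 38.2, 30.5 and 51.6 CPM. Its ratio differed between libraries, with log2 values of 1.84 in hCD33m, 1.02 in hCD33M and 0.53 in Control and 1.39 ± 0.12 in the fit (adjusted p = 8.4e-11). Rgs1 (chromosome 1, 144242296 to 144249242), which shortens signals from G protein-coupled chemokine receptors, had 264, 129 and 140 CPM, against 156, 60.5 and 67.9 CPM. Here the hCD33m matched microglia lay above the Fos/Fosb-high cells of the other libraries, so the groups overlapped although each library rose. Rgs1 rose by 0.87 ± 0.06 on the log2 scale (adjusted p = 5.5e-14).

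In all, 11 of the 23 tested early response genes rose, none fell and the median log2 ratio was 0.24. The smaller changes included Ier3, an inhibitor of apoptosis (log2 0.72), Klf6 (0.40), Ier5 (0.37), Mcl1, a survival protein of the Bcl2 family (0.24), and Rgs2 (0.15). Ier3, Klf6 and Rgs2 did not pass without the hCD33m library, where their log2 ratios were 0.58, 0.18 and 0.14 (edgeR adjusted p = 0.134, 0.608 and 0.258). Id2, a dimerisation inhibitor, passed through the hCD33m library. It had 84.5, 43.9 and 39.8 CPM in Fos/Fosb-high cells of hCD33m, hCD33M and Control, against 46.0, 46.9 and 44.1 CPM in matched microglia. Its log2 ratio of 0.47 (adjusted p = 0.0445) became -0.12 without hCD33m (adjusted p = 0.977). Members that did not pass included Myc, with 17.9, 26.8 and 29.2 CPM against 16.3, 22.2 and 30.0 CPM, and Srf, with 17.5, 15.9 and 16.8 CPM against 16.2, 21.8 and 17.9 CPM. The other 17 of the 40 listed genes, Nr4a1 and Egr2 among them, were under the minimum of 5 CPM and were not tested.

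Of the list of genes induced by growth factors that feed back on the response, 10 of 17 tested members rose and none fell. The median log2 ratio was 0.26, and 0.14 without hCD33m. The members include phosphatases, regulators of mRNA decay and antiproliferative genes. Dusp1 (chromosome 17, 26505590 to 26562128), the phosphatase that switches off p38 and JNK kinases, had 155, 44.7 and 62.0 CPM in Fos/Fosb-high cells of hCD33m, hCD33M and Control, against 30.2, 14.4 and 14.6 CPM in matched microglia. Groups did not overlap. Dusp1 was seen in 43.0%, 25.1% and 30.6% of Fos/Fosb-high cells, against 13.7%, 8.29% and 7.58% of matched microglia, and its log2 ratio was 2.22 ± 0.10 (SE, edgeR adjusted p = 2.7e-19). Its promoter, shown above, held a whole CRE. Dusp6, which acts on ERK, rose less (log2 0.25, adjusted p = 1.1e-04).

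In the same list, Zfp36 (chromosome 7, 28376784 to 28380253), the mRNA-destabilising tristetraprolin, had 382, 237 and 246 CPM in Fos/Fosb-high cells of hCD33m, hCD33M and Control, against 180, 149 and 157 CPM in matched microglia. Its log2 ratio was 0.90 ± 0.06 (SE, edgeR adjusted p = 6.2e-15), and its relative Zfp36l1 rose by 0.33 (adjusted p = 6.7e-08). Btg2 (chromosome 1, 134075170 to 134079120), an antiproliferative cofactor of mRNA deadenylation, had 1555, 799 and 912 CPM, against 736, 546 and 521 CPM. It rose by 0.87 ± 0.05 (adjusted p = 7.7e-17), with Btg1 at 0.25 (adjusted p = 7.1e-05). For both Zfp36 and Btg2 the lowest Fos/Fosb-high value was above the highest matched value. Socs3, an inhibitor of cytokine receptor signals, rose by 0.70 and Ppp1r15a, which reverses the translation block of stressed cells, by 0.68. Socs3, Ppp1r15a, Btg1 and Dusp6 did not pass without the hCD33m library, where their log2 ratios were 0.47, 0.48, 0.14 and 0.16 (adjusted p = 0.170, 0.511, 0.511 and 0.301).

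The study named a group of genes of one of its clusters that, beside Fos and Fosb, holds Jun, Egr1, Btg2, Klf2, Zfp36l1, Btg1 and Rhob, not all of them immediate early genes. Fos and Fosb were left out because they chose the cells. All 7 others rose in Fos/Fosb-high cells, with a median log2 ratio of 0.87. The study chose these genes on its own single-cell data, so the count is not independent evidence of their direction. Rhob, a small GTPase, had the lowest ratio of them (0.20).

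**Figure D3:**
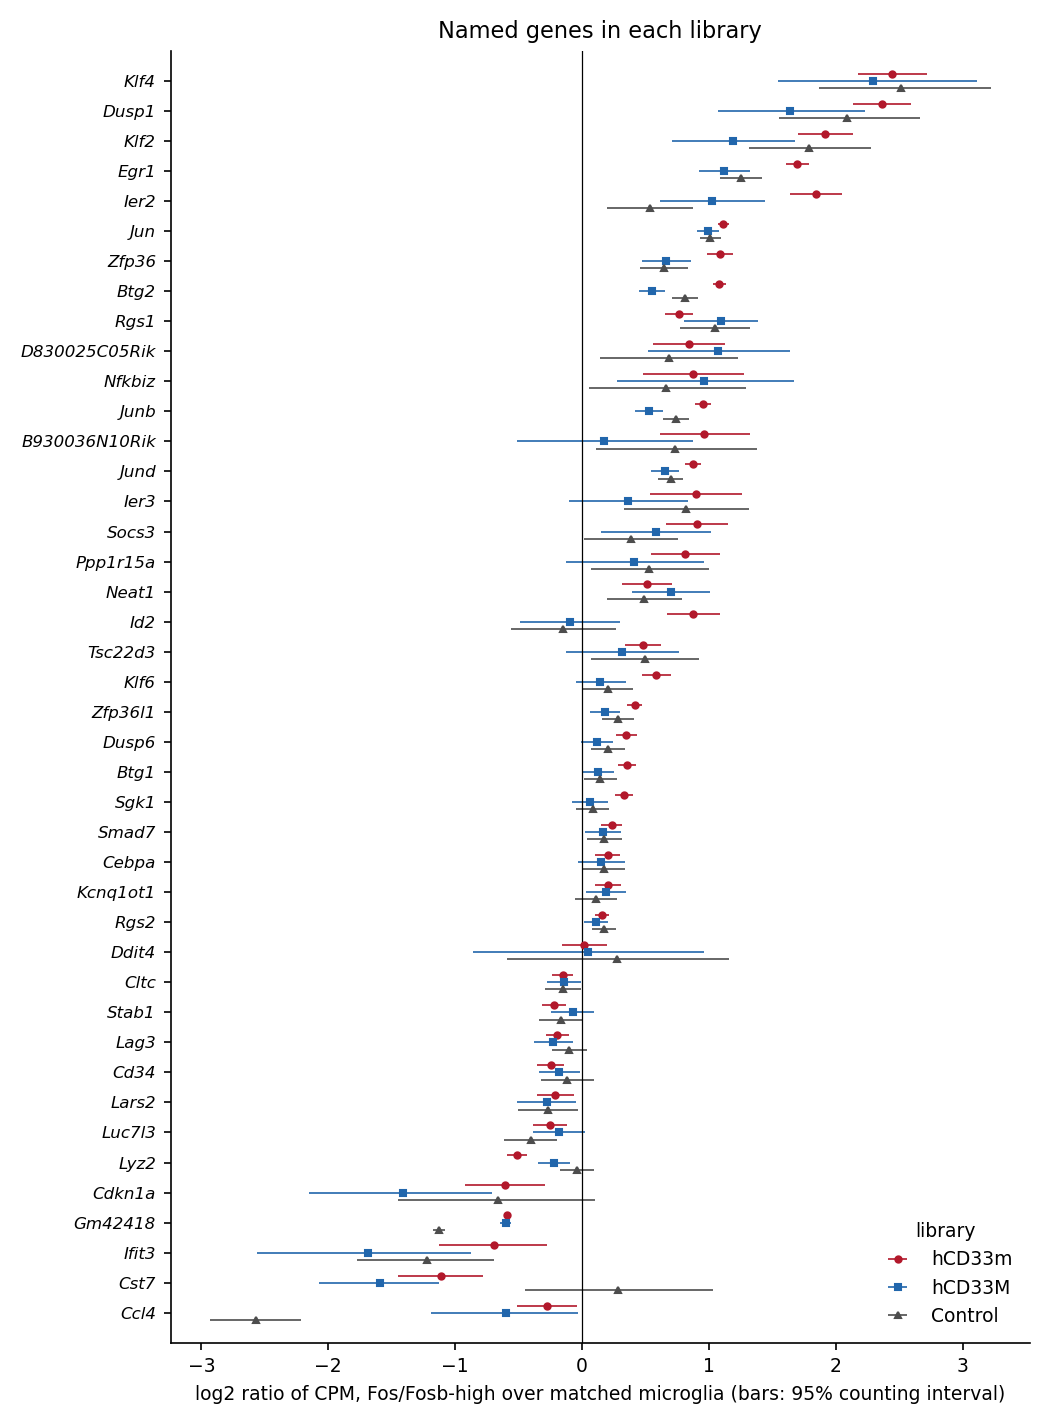
Log2 ratio of CPM in Fos/Fosb-high cells over matched microglia (horizontal axis) in each library for named genes, with 95% counting intervals; MHC class II genes, Cd74, Ccl2, 3 interferon genes of low counts and a further gene are left out. Klf4, Dusp1, Klf2, Egr1 and Jun are above 0 in each library, Ddit4 lies at 0 within its intervals, and Ccl4 is lowest in Control at -2.57.

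Egr1 was compared over classes of Fos and Fosb UMIs. In hCD33m microglia with 0, 1, 2, 3, 4, 5 to 9 and 10 or more UMIs of Fos and Fosb, Egr1 stood at 199.6, 285, 308, 375, 426, 613 and 807 CPM. In hCD33M it stood at 124, 181, 270.4, 251, 322 and 293 CPM, and in Control at 164, 271, 297, 334, 466 and 409.6 CPM, over the classes up to 5 to 9. Cells with only 1 or 2 UMIs, which are neither Fos/Fosb-high nor matched microglia, thus lay above the 0 class in each library. The steps were not all upward, since hCD33M cells with 2 UMIs lay above those with 3, and Control cells with 4 above those with 5 to 9. Jun in hCD33m stood at 903 CPM in the 0 class and 2367 CPM in the highest, and Klf4 at 19.1 and 153 CPM. In hCD33M, Klf4 was highest at 3 UMIs (43.3 CPM) and had 25.1 CPM at 5 to 9, and Klf2 was highest at 2 UMIs (59.6 CPM) and had 45.4 CPM at 5 to 9. These classes were not matched on depth: median UMIs were 4568 in the 0 class and 6740.5 in the highest class of hCD33m. Cx3cr1, by contrast, had 3185 CPM in the 0 class and 3229 CPM in the highest class of hCD33m.

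**Figure D4:**
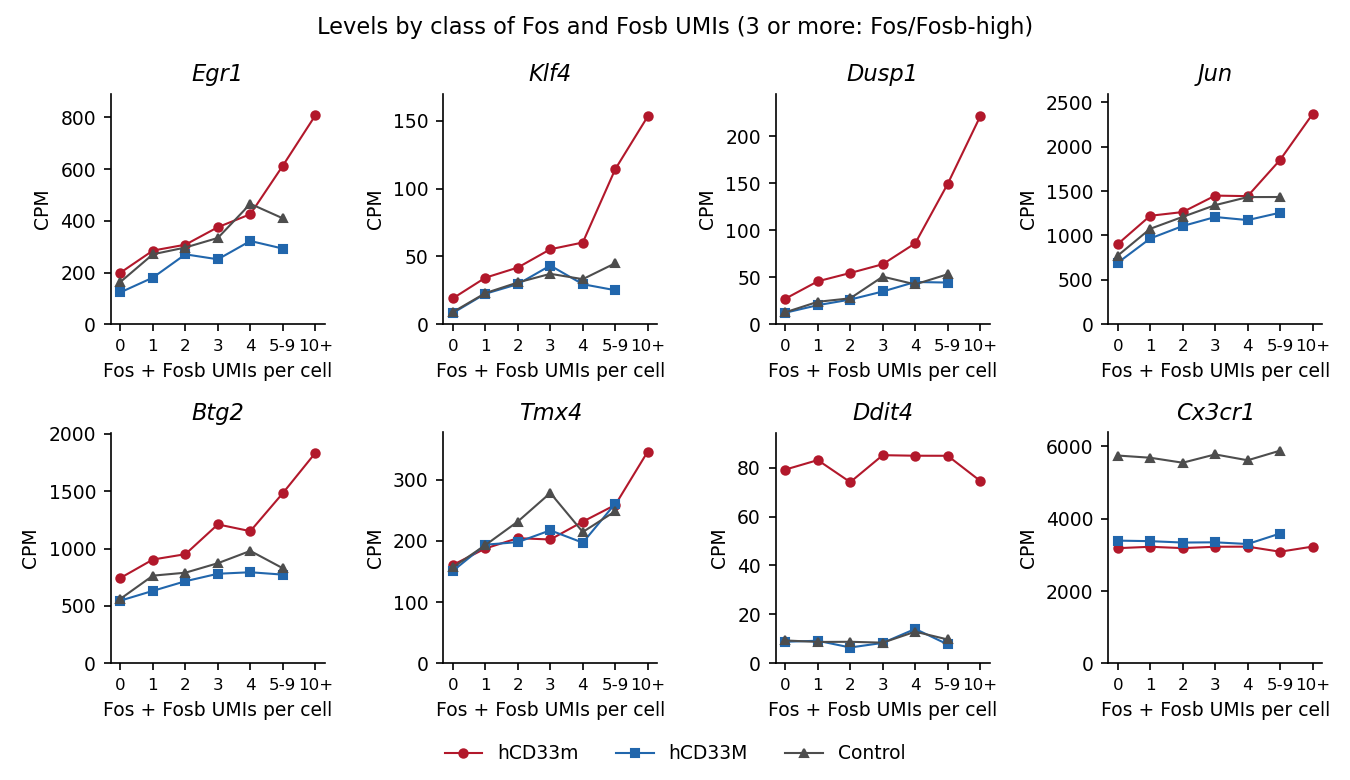
CPM (vertical axes from 0) of 8 genes by the number of Fos and Fosb UMIs per cell (horizontal axis) in each library; classes under 20 cells are not drawn. Egr1 in hCD33m is 199.6 CPM at 0 UMIs and 807 CPM at 10 or more, while Ddit4 and Cx3cr1 show no such increase.

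Levels were also compared between the Fos/Fosb-high cells of 2 libraries. These genes were called in a fit to which hCD33m gave most cells, so their level in that library is a description. Dusp1 had a log2 ratio of hCD33m over Control of 1.32 (1.07 to 1.57) in Fos/Fosb-high cells and 1.05 in matched microglia. Egr1 had 0.59 (0.49 to 0.69) in Fos/Fosb-high cells and 0.15 (-0.01 to 0.31) in matched microglia. Jun had 0.34 (0.29 to 0.40) and 0.24. These are values of 1 library against another, with no replicate check, and the hCD33m library also differs in sex. Nor were the libraries matched on Fos and Fosb UMIs. Cells with 10 or more of them numbered 254 for hCD33m and 19 for Control. Within single UMI classes of hCD33m and Control, Egr1 was 375 and 334 CPM for 3 UMIs and 426 and 466 CPM for 4. For 5 to 9 UMIs it was 613 and 409.6 CPM. Whether the Egr1 ratio between libraries remains once Fos and Fosb UMIs are made equal was not tested.

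A high level in the hCD33m library and a high level in Fos/Fosb-high cells did not go together for every gene. Ddit4, an mTOR inhibitor induced by glucocorticoids and stress, had 80.6, 9.35 and 11.1 CPM in Fos/Fosb-high cells of hCD33m, hCD33M and Control, against 79.6, 9.06 and 9.16 CPM in matched microglia. Both kinds of hCD33m cell were far above those of the other libraries, and the ratio of Fos/Fosb-high to matched cells was 0.04 ± 0.10 on the log2 scale (SE, edgeR adjusted p = 0.983). Tsc22d3, the glucocorticoid-induced leucine zipper protein, had 151, 39.5 and 46.8 CPM, against 108, 31.7 and 33.3 CPM. It was high in both kinds of hCD33m cell and rose in Fos/Fosb-high cells, with a log2 ratio of 0.46 ± 0.07 (adjusted p = 7.7e-05). Without the hCD33m library the ratio was 0.41 and did not pass (adjusted p = 0.521). Of 13 tested glucocorticoid and stress genes 2 rose, Tsc22d3 and Sgk1, and 1 fell, Cdkn1a, with a median of 0.08. Sgk1 had a log2 ratio of 0.21, and of 0.07 without hCD33m (adjusted p = 0.929).

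The lists of other stress programmes held no called gene. Over all tested genes 0.687% were called higher and 0.167% lower, so few or no calls would be usual in lists of this size. None of 11 tested heat shock genes, 11 genes of the integrated and unfolded protein responses, 11 clock genes, 5 cell cycle genes, 18 lysosomal genes, 13 mitochondrially encoded genes or 81 ribosomal protein genes passed in either direction, with medians between -0.06 and 0.01. Ratios were under 0 for 13 of 13 mitochondrially encoded, 14 of 18 lysosomal and 58 of 81 ribosomal protein genes, against 4814 of all 9607 tested genes. The called gene Ppp1r15a, which also acts in stressed cells, was counted in the growth factor feedback list. Hspa8, a constitutive chaperone, had 553, 466 and 484 CPM in Fos/Fosb-high cells, against 518, 483 and 521 CPM in matched microglia. Among 12 tested NF-kB feedback genes 1 rose, Nfkbiz, with 23.3, 22.4 and 25.1 CPM against 12.7, 11.5 and 15.8 CPM. Its log2 ratio was 0.84 (edgeR adjusted p = 2.9e-04), and without hCD33m it was 0.80 and did not pass (adjusted p = 0.107). Nfkbia, the classical target and inhibitor of NF-kB, had a ratio of 0.19 that did not pass (adjusted p = 0.0803).

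**Figure D5:**
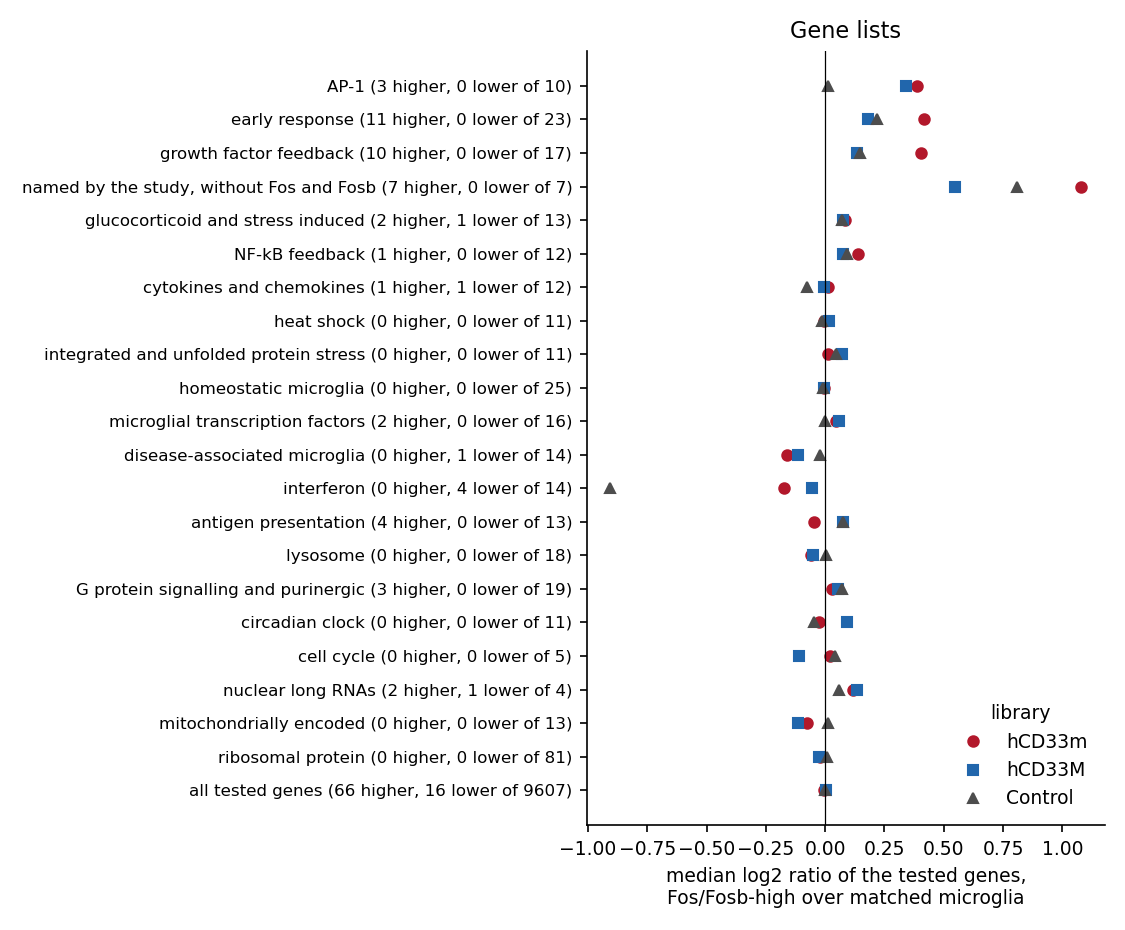
Median log2 ratio of Fos/Fosb-high cells over matched microglia (horizontal axis) over the tested genes of each list, per library, with the number of genes called higher and lower. The early response, growth factor feedback and study-named lists lie to the right in each library, up to 1.08 for the study-named genes in hCD33m, while the AP-1 list is near 0 in Control (0.01).

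Genes of microglial regulation changed little. Of 16 tested microglial transcription factors 2 rose, Smad7, an inhibitor of TGF-beta signals (log2 0.20), and Cebpa (0.19). Spi1, which encodes the lineage factor PU.1, had a log2 ratio of 0.02. Of 19 G protein signalling and purinergic genes 3 rose, Rgs1 and Rgs2 among them. Without hCD33m their log2 ratios were of like size, 0.17 for Smad7 and 0.16 for Cebpa, but did not pass (edgeR adjusted p = 0.233 and 0.554). Of 4 tested nuclear long RNAs, Neat1, the scaffold of paraspeckles, rose with 79.4, 95.6 and 97.0 CPM against 55.8, 58.9 and 69.1 CPM (log2 0.55, adjusted p = 8.2e-06), and Kcnq1ot1 rose by 0.18. Without hCD33m it had 0.15 and did not pass (adjusted p = 0.576).

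Several genes of activated states were lower in Fos/Fosb-high cells. For the called interferon genes, few cells held most of the UMIs in matched microglia. Of 14 tested interferon genes 4 fell and none rose, with a median of -0.26. The list medians were -0.17, -0.05 and -0.91 in hCD33m, hCD33M and Control, and -0.09 over the libraries without Control. The median was 0.01 without depth matching and 0.04 with cells of 3 other states (interferon, MHC class II or Cst7 signals) left out. Ifit3, an antiviral protein induced by interferon, had 11.6, 6.91 and 17.7 CPM in Fos/Fosb-high cells of hCD33m, hCD33M and Control, against 18.8, 22.2 and 41.2 CPM in matched microglia. Its log2 ratio was -1.04 ± 0.16 (SE, edgeR adjusted p = 3.7e-05). It did not pass without depth matching (log2 -0.28, adjusted p = 0.498) or with cells of the 3 states left out (-0.32, adjusted p = 0.874). In matched microglia 5 cells held 57.9%, 70.4% and 84.8% of the Ifit3 UMIs of hCD33m, hCD33M and Control, and 67.3%, 78.9% and 90.6% of the Ifit1 UMIs. Ifit1 had 2.41, 0.813 and 4.93 CPM, against 8.55, 7.82 and 13.3 CPM (log2 -1.84), and Ifit2 and Rsad2 fell by 1.54 and 1.83. Rsad2 was tested only because of matched Control cells, which had 22.9 CPM against 1.64 CPM in Fos/Fosb-high Control cells. In them 5 cells held 100% of its UMIs. Its log2 ratio was -0.02 in hCD33M and -0.87 in hCD33m (-1.82 to 0.04). Without Control, Rsad2 and Ifit1 were under the minimum of 5 CPM and were not tested. The other 10 interferon genes did not pass.

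Of 14 tested disease-associated microglia genes 1 fell, Cst7, a cystatin of activated microglia, and all 14 ratios were under 0 (median -0.11). The median was 0.04 without depth matching and -0.05 with cells of the 3 other states left out. Cst7 had 16.9 and 21.2 CPM in Fos/Fosb-high cells of hCD33m and hCD33M, against 36.4 and 63.8 CPM in matched microglia. In Control it had 15.2 CPM, against 12.5 CPM in matched microglia, so the change was not shared by that library (log2 -1.08, edgeR adjusted p = 1.0e-05). Cst7 did not pass without depth matching (adjusted p = 0.309), with cells of the 3 states left out (0.811), with the stricter cell filter (0.131) or with robust dispersions (0.0940). Cdkn1a, a cell cycle inhibitor, fell by 0.75. Gm42418 (chromosome 17, 39846958 to 39848788), a transcript known to overlap a ribosomal RNA repeat, had 3029, 2748 and 2451 CPM in Fos/Fosb-high cells, against 4557, 4171 and 5352 CPM in matched microglia. All 3 Fos/Fosb-high values were lower, but 5 cells held 16.6%, 26.3% and 38.3% of its UMIs in the matched microglia (log2 -0.76, adjusted p = 1.7e-15). The macrophage and microglial lysozyme Lyz2 fell by 0.31, and without hCD33m had -0.13 and did not pass (edgeR adjusted p = 0.526). Summed macrophage markers had 1058, 999 and 958 CPM against 1323, 1026 and 1035 CPM. That sum includes Lyz2 and is not separate from it. Lyz2 alone had 334, 404 and 364 CPM against 478, 471 and 374 CPM. Smaller decreases, between 0.15 and 0.27 on the log2 scale, were called for the splicing factor gene Luc7l3, the mitochondrial leucyl-tRNA synthetase Lars2, Cd34, Lag3, the scavenger receptor Stab1 and the clathrin heavy chain Cltc. Without hCD33m all 6 ratios stayed under 0, between -0.12 and -0.29, and only Luc7l3 passed (adjusted p = 0.0253). Without Control, Luc7l3 had -0.23 (adjusted p = 0.0575).

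A few called genes rested on few cells of 1 library. Ccl2, a monocyte chemoattractant, had 47.4, 3.25 and 16.4 CPM in Fos/Fosb-high cells of hCD33m, hCD33M and Control, against 9.64, 3.70 and 9.58 CPM in matched microglia. In hCD33m 5 cells held 63.8% of its UMIs, and without that library the log2 ratio was 0.55 instead of 1.86 (edgeR adjusted p = 0.907). The chemokine Ccl4 had 42.0, 17.9 and 31.6 CPM, against 50.8, 27.2 and 187 CPM, and 5 cells held 86.4% of its UMIs in the matched Control microglia. Without Control its log2 ratio was -0.33 instead of -1.11 (adjusted p = 0.315). These were the only called genes of 12 tested cytokines and chemokines. Of 13 tested antigen presentation genes 4 were called higher, H2-Eb1, H2-Aa, H2-Ab1 and Cd74. H2-Eb1 and H2-Aa were higher in hCD33M only, where 5 cells held 98.9% and 97.3% of their UMIs. Their log2 ratios were -0.63 and -0.05 in hCD33m and -0.02 for both in Control. Without hCD33M both were under the minimum of 5 CPM and were not tested. H2-Ab1 and Cd74 were higher than in matched microglia mainly in hCD33M. Cd74, the invariant chain of MHC class II, had 25.6, 166 and 43.5 CPM, against 24.9, 32.9 and 37.1 CPM. Within the Fos/Fosb-high cells of hCD33M, 5 cells held 83.9% of its UMIs, and without that library its log2 ratio was 0.12 (adjusted p = 0.945) and that of H2-Ab1 0.01 (0.998).

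The calls of the leading genes differed in how they held under other settings. Of all called genes, Jun, Jund, Klf4 and Tmx4 passed in each alternative that gave them an adjusted p, 21 of them for Klf4 and 22 for the others. With robust dispersions, which were tried after the data had been seen, Egr1, Btg2, Junb and Ier2 did not pass (edgeR adjusted p = 0.335, 0.554, 0.401 and 0.701), nor did Gm42418 (0.622). Without the library block 7 of the 82 called genes passed. Dusp1, Klf2, Ier2, Zfp36, Zfp36l1, Btg2 and Rgs1 were among those that did not, although each kept its direction.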

How the data were processed

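Single-cell RNA of sorted mouse microglia was measured in 3 libraries, 1 per genotype. The deposited values are UMI counts per gene and barcode, which the authors made with Cell Ranger and STAR against mm10 and imported into Seurat without normalization. Barcodes of 200 genes or fewer and genes seen in under 3 cells are not in the files, which held 32572995, 28387611 and 21529542 UMIs over 5707, 5100 and 3482 barcodes of hCD33m, hCD33M and Control. The barcodes equal the starting totals the study gives for hCD33M and Control, and the hCD33m file holds a few more. The filter for under 8000 genes and at most 10% mitochondrial UMIs left 5612, 5046 and 3412 cells. No doublet caller was run beyond this limit on genes, and no source names the annotation release.

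Fos/Fosb-high cells were matched, deepest first, with microglia of 0 Fos and 0 Fosb UMIs within 10% of their UMIs. CPM were computed from the summed counts. The Fos, Fosb and 6 cell-defining genes were left out of the sums, and genes with at least 5 CPM in the mean of the 6 sums were tested with edgeR 4.0.16 (quasi-likelihood, TMM, library as a block) in R 4.3.3, with Benjamini-Hochberg adjustment at 0.05. Interval limits of ratios between 2 sums are exact at 95%, computed with scipy 1.17.1. The fit was run on simulated sums with the same dispersion for all genes and the same change in every library. That run cannot show how the fit treats genes whose change differs between libraries. Named genes were the 15 highest and the 15 lowest log2 ratios among called genes of the same direction in 3 libraries and at least 20 CPM on the higher side, up to 8 called members of each list of early genes and up to 4 of each other list, with Ddit4, Tsc22d3, Egr1, Fos and Fosb in any case. Tmx4, Rhob, Ier5 and Mcl1 and members given as not passing were chosen after their values were seen. The members and the lists were chosen with earlier results of these data known. Alternatives were DESeq2 1.42.0, other scalings, filters, thresholds, matching and thinning, no block, and leaving out each library. Robust dispersions, ascending matching, DESeq2 adjusted over all tested genes, and leaving out cells with interferon, MHC class II or Cst7 signals were added after seeing the data. Promoters were RefSeq windows of 250 bases before and 50 after each start. Positions of genes are from GENCODE on mm10. Egr1, Ier2 and Rgs1 had no entry. Values of a few genes are not reported here.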

Additional observations from a re-analysis of the deposited data

How the results depend on the processing

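Genes higher and lower in Fos/Fosb-high cells numbered 66 and 16. The counts were 15 and 1 by DESeq2, 15 and 0 by DESeq2 adjusted over all tested genes, 29 and 9 with at least 3 Fosb UMIs, 6 and 1 with no library block, and 37 and 4 after thinning to 2000 UMIs. Genes lower numbered 8 with cells of 3 other states left out, 10 with the stricter cell filter and 8 with a threshold of 5 UMIs. Leaving out each library in turn gave 30 to 85 genes higher and 17 to 23 lower, the lowest count of higher genes without hCD33m and the highest without hCD33M. The cause of these shifts was not tested. The fits without a library held fewer samples, and thinning left fewer UMIs. Fos/Fosb-high and matched sums were paired by library through the block. The labels give no replicate numbers that would pair libraries. The median log2 ratio was 0.53 for AP-1 genes and 0.37 for early response genes at a minimum of 20 CPM, and 0.41 for growth factor feedback genes with at least 3 Fos UMIs. Without 1 library the medians ranged from 0.15 to 0.35 for AP-1, 0.18 to 0.40 for early response and 0.14 to 0.31 for growth factor feedback genes, each lowest without hCD33m.

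The share of microglia with at least 3 Fos and Fosb UMIs was 2.82%, 0.171% and 0.348% in hCD33m, hCD33M and Control with cells thinned to 1000 UMIs. It was 17.6%, 4.27% and 6.21% at 4000 UMIs, and 23.1%, 8.06% and 11.3% unthinned. In cells thinned to 2000 UMIs, it was 14.6%, 4.25% and 5.44% with a threshold of 2 UMIs, and 2.42%, 0.0221% and 0.198% with 5 UMIs. The hCD33m share was the highest of the 3 in each of these settings.

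Directions turned for genes outside the leading ones, and the cause was not tested. The log2 ratio of Cd74 was -0.047 with cells of 3 other states left out, that of Id2 ranged from -0.12 to 0.63 when 1 library was left out and was lowest without hCD33m, and those of Ccl4 and H2-Ab1 were 0.25 and -0.28 with at least 3 Fosb UMIs. Without depth matching Ccl4, Lyz2 and Cltc had 0.015, 0.0089 and 0.019. Within single libraries and without depth matching, Ccl4 had 0.99 in hCD33m, Lyz2 0.026 and Cltc 0.021 in hCD33M, and Cltc 0.057 and Ifit1 8.7e-04 in Control. With a threshold of 5 UMIs, B930036N10Rik had -0.10 and Lars2 0.20 in Control, Ccl4 had 1.37 and Ifit3 0.15 in hCD33m, Cd34 had 0.063 in hCD33M, and Ier3 had 0.038 in Fos/Fosb-high cells of hCD33m over Control. Lyz2 had 0.15 in hCD33M with the stricter cell filter. At the median depth of these cells a transcript of low level, such as Klf4, gives no UMI in most cells, so shares of cells with a UMI are limited by depth.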

Other observations

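Tmx4 (chromosome 2, 134594185 to 134644145), a thioredoxin-related protein of the endoplasmic reticulum membrane that is in none of the lists, was singled out after its values were seen. It had 269.9, 241 and 279.8 CPM in Fos/Fosb-high cells of hCD33m, hCD33M and Control, against 164, 148 and 164 CPM in matched microglia. The ratios were alike in the 3 libraries, 0.72, 0.70 and 0.77 on the log2 scale, and the fit gave 0.73 ± 0.05 (SE, edgeR adjusted p = 6.2e-15). Among transcripts without an assigned role, D830025C05Rik rose by 0.86 and B930036N10Rik by 0.77, the second of which had 0.48 without hCD33m and did not pass (edgeR adjusted p = 0.797). In all, 30 of the 66 genes that rose were in none of the lists.

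Fos/Fosb-high cells differed by which of the 2 transcripts they held. Egr1 in hCD33m had 589 CPM in cells with both, 594 CPM in cells with Fos alone and 315 CPM in cells with Fosb alone. In hCD33M it had 316, 272 and 210.3 CPM, and in Control 403, 387 and 383 CPM. Klf4 in hCD33m had 114, 51.5 and 77.5 CPM in the same order. These kinds were not matched on depth and were not tested.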
